A study of Triticum aestivum with 24 samples.

Results

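In wheat leaves, 3 of the 62 loci in a degradome target table were examined: TraesCS2A01G360000 on chromosome 2A, annotated in the table as cysteine-rich receptor-like protein kinase 41, TraesCS5B01G063100 on 5B, annotated as an F-box family protein, and TraesCS5B01G215200 on 5B, annotated as glucan synthase-like 10. The names kinase, F-box and callose synthase locus are used for them below. They were chosen by measured values, because cleavage positions of miR1133 and of related repeat-type miRNA families had been listed at them, so that their families and positions are a description and were not tested. Every line of the table that named 1 of these loci was taken, under any miRNA, which gave 18 of the 239 listed pairs of a miRNA and a cleavage position, and 10 of the 92 distinct positions (sites). These pairs involved 11 of the 73 miRNAs and 5 of the 18 families of the table. The paper reports more target loci and more miRNAs with targets than the table holds. Statements about other loci below therefore cover the table only. The annotations could not be checked further, since 0 of the 3 identifiers matched the reference names used here, which follow a later assembly.

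The RNA was from leaf tissue of the bread wheat cultivar Chinese Spring (Triticum aestivum). Plants at the boot stage were either heat stressed at 37 °C for 5 days or kept under control conditions, and leaves were taken 0, 1 and 4 days after the treatment had ended (DAT). The 24 libraries formed 6 groups of 4 replicates, heat at 0, 1 and 4 DAT and control at 0, 1 and 4 DAT, and each was made from RNA pooled over 18 plants. In the table each pair had a single value with no library named, so no comparison of heat with control was possible at these loci.

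Cysteine-rich receptor-like kinases are plasma membrane proteins with an extracellular part rich in cysteines and a serine/threonine kinase domain inside the cell, and in Arabidopsis members of this family act in defence and in the response to reactive oxygen species. F-box proteins are the subunits of SCF ubiquitin ligases that recognise the protein to be degraded. Glucan synthase-like proteins make callose, a glucan laid down at cell plates, plasmodesmata and wounds, and Arabidopsis GSL10 is needed for pollen development. Plant miRNAs guide an Argonaute protein to a nearly complementary stretch of a transcript, which is usually cut between the bases that pair with bases 10 and 11 of the miRNA. Families such as miR1133, miR1135 and miR1136 come from precursors that resemble miniature inverted-repeat transposons (MITEs), short DNA elements whose ends are inverted copies of each other.

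The 10 sites lay in 4 stretches of coding sequence, which are shown because the same sequence occurred in all of them. Stretches were not counted at the other loci, where 30 pairs of sites also lay up to 4 nt apart, against 6 pairs here. A stretch (site cluster) joins all miRNA binding sites of a locus that overlap by at least 1 nt, and positions count from 1 at the start of the IWGSC RefSeq v1.0 coding sequence. The capitals mark the bases identical to a 19-nt run of the callose synthase stretch, read on the same strand or, in the second kinase stretch, on the opposite strand.
Kinase, positions 362 to 385: cctccGTCCGgAAATACTTGTCAT
Kinase, positions 430 to 463: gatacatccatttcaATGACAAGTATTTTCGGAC
F-box, positions 922 to 945: cctccGTCCGgAAATACTTGTCAT
Callose synthase, positions 672 to 703: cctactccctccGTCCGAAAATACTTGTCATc

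The first kinase stretch and the F-box stretch were identical over all 24 nt. Against positions 679 to 702 of the callose synthase transcript they matched at 23 of 24 bases, with 1 differing base, which lies in the 19-nt run. The second kinase stretch held all 19 bases as the reverse complement, at positions 445 to 463, against positions 684 to 702 of the callose synthase transcript. The kinase transcript therefore carried the shared sequence in both orientations, over a span of 102 nt with 44 bases between the stretches. A run of 13 nt was common to the 4 stretches on either strand and was found in 0 of the 59 other loci, as was the 19-nt run, which 2 of the 3 loci held. The listed binding sites of TraesCS5B01G013700, another F-box protein locus, held 12 of the 13 nt, on the strand opposite to the callose synthase stretch, and they shared an 18-nt run with the first kinase and F-box stretches. Only the binding sites listed in the table were searched, not whole transcripts. The 3 loci were chosen for sites of miR1133, and no other locus of the table had one. That they share sequence which the other loci lack therefore follows in part from the choice.

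The mature miRNAs listed at these sites are shown with the seed, bases 2 to 8 from the 5′ end, in capitals, and with T for U. They are shown because miR1135 miRNAs of nearly the same sequence had different seeds.
miR1133-6-3p: aAGACAAGaattttgggacggagg
miR1135-1001-5p: gAATTACTtgtcacggaaatg
miR1135-1765-5p: gGAATTACttgtcgcggaaat
miR1135-1920-5p: gGAATTACttgtcacggaaat
miR1135-1403-5p: tTCGGAATtacttgtctcggaaat
miR1135-1184-5p: gTTCGGAAttacttgtctcggaaa
miR1136-1037-5p: aCTTGTCGcaggtatgaatgtatc
miR1136-1601-3p: gCGACAAGtaattccgaacgg
miR1136-597-3p: cGAGACAAgtaattccgaacggag
miR1137-438-3p: tCATCTATtttggaacggagg
miR1120-1193-3p: tTATGAGAcggagggagtacc
Only miR1135-1765-5p and miR1135-1920-5p had the same seed, so the 11 miRNAs carried 10 seeds. Different seeds need not mean separate sequences. miR1135-1001-5p is miR1135-1920-5p with a shifted start, and miR1135-1403-5p is likewise a shifted miR1135-1184-5p. Of the 18 pairs, 9 (50%) involved a miRNA of 24 nt and the other 9 a miRNA of 21 nt. Among the pairs of the other loci, 22 of 221 (9.95%) involved a miRNA of 24 nt. Of the 9 pairs with 24 nt here, 4 were those of miR1133-6-3p, which the choice of loci brought in. The difference in length therefore follows in part from the choice and was not tested.

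At the kinase locus 11 pairs fell on 6 sites, under 7 miRNAs of the families miR1133, miR1135 and miR1136. The first stretch had a single site, position 373, with 13 PARE tags (exact Poisson 95% interval 6.92 to 22.2), under miR1133-6-3p. PARE tags are sequenced 5′ ends of uncapped RNA fragments, and the interval, like all those given here, covers counting error only. These 13 tags were 41.9% of the 31 tags in the window that the table gives around the site (Wilson 95% interval 26.4 to 59.2). The site was in category 0, the lowest of the table's categories of peak. Category 0 is meant for the most prominent peak of a transcript, but 5 of the 6 kinase sites had it, each with a different number of tags, so it did not single out 1 site.

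The second kinase stretch held 10 pairs and 5 sites within 11 nt, from position 442 to position 452. Position 448 led with 21 tags (interval 13.0 to 32.1). They made up 70.0% of the 30 window tags (interval 52.1 to 83.3), and the site ranked second of all 92 sites. It was listed under miR1135-1001-5p, miR1135-1765-5p and miR1135-1920-5p. Position 452 had 12 tags of a window of 41 (29.3%, interval 17.6 to 44.5), under miR1135-1184-5p and miR1135-1403-5p. Both positions thus carried miR1135 alone, under different miRNAs of nearly the same sequence.

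Between and before them lay sites with fewer tags. Position 447 had 9 tags of 22 (40.9%, interval 23.3 to 61.3) under miR1135-1001-5p, and position 450 had 5 tags of 17 (29.4%, interval 13.3 to 53.1) under miR1135-1403-5p, miR1135-1765-5p and miR1135-1920-5p. Position 442 had 6 tags of 23 (26.1%, interval 12.5 to 46.5) and was the only site of this stretch under another family, miR1136, through miR1136-1037-5p. It was also the only kinase site outside category 0, in category 2, and its score of 7 was the highest of the 239 pairs, where 0 stands for perfect pairing. The Poisson interval of position 448 did not overlap that of position 450 (1.62 to 11.7), and it overlapped those of the other 4 kinase sites. The order of the other kinase sites by tags was within counting error.

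The binding sites of the second kinase stretch lay on top of each other. The 10 pairs used 5 distinct binding sites, and positions 440 to 453, 14 nt, were common to all of them. The same miRNA was listed with more than 1 cut. miR1135-1001-5p, bound at positions 438 to 458, was listed at 447 and 448. miR1135-1765-5p and miR1135-1920-5p, both bound at positions 439 to 459, were listed at 448 and 450, and miR1135-1403-5p, bound at 439 to 462, at 450 and 452. The cuts of each of these 4 miRNAs lay 1 or 2 nt apart, and 3 of the 5 cuts of the stretch, at 448, 450 and 452, were listed under more than 1 miRNA. Scores of the miR1135 pairs were between 3.5 and 5.

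**Figure D1:**
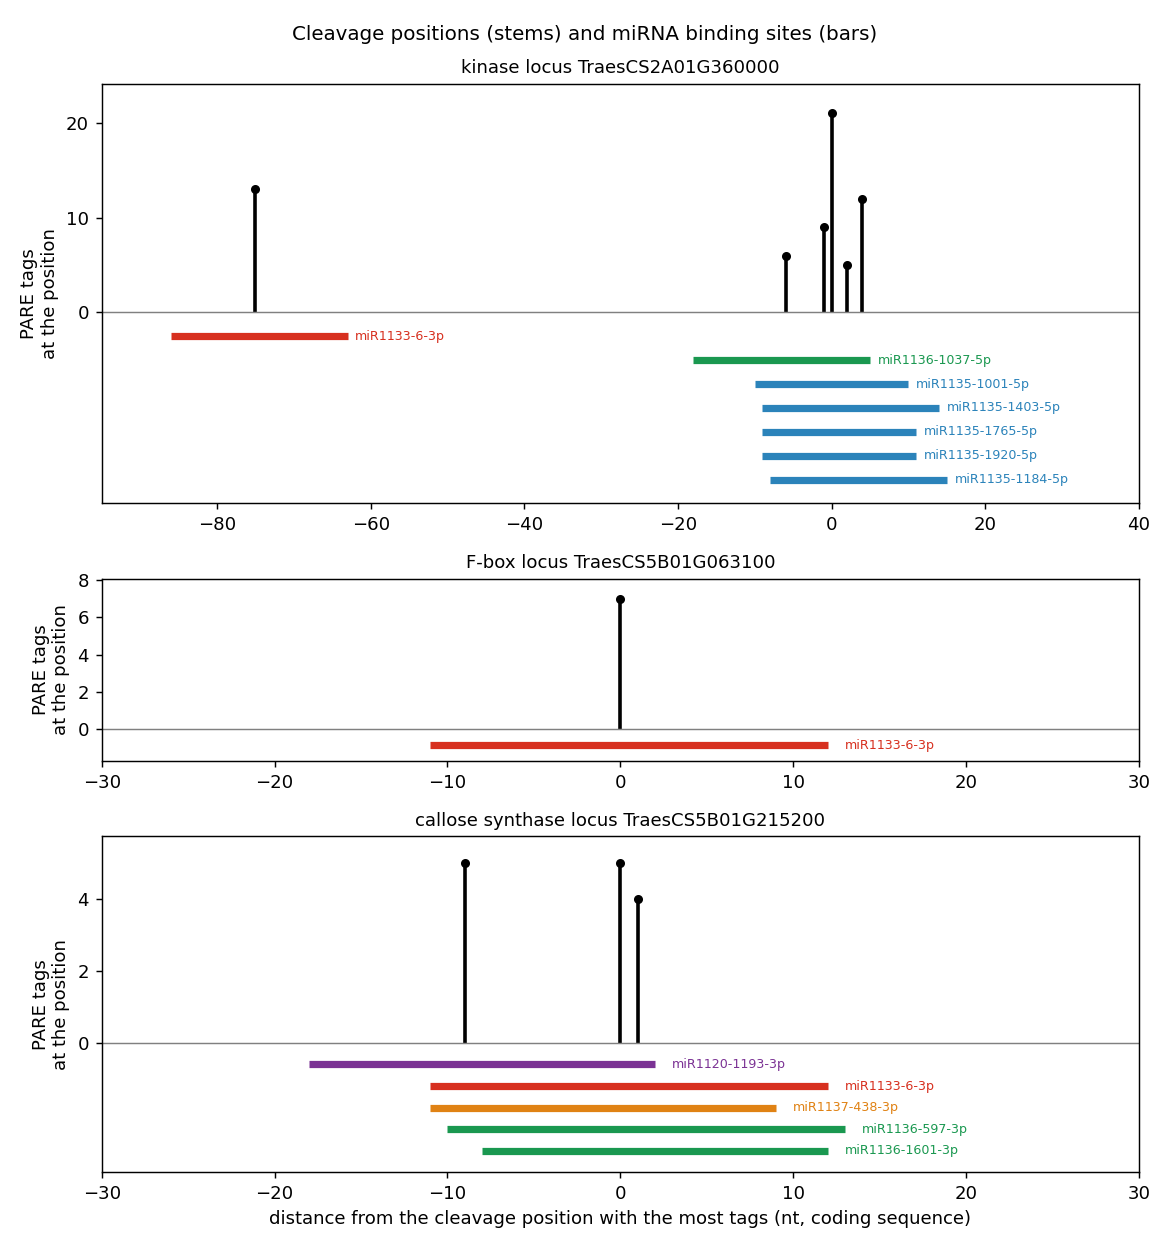
Cleavage positions and miRNA binding sites of the kinase, F-box and callose synthase loci. Stems give PARE tags (y axis; both axes are scaled per panel) against the distance in nt from the position with most tags (at the callose synthase locus, the later of 2 positions with 5 tags), and bars below give the binding sites, coloured by miRNA family; bars pile up under 5 neighbouring kinase positions and under all 3 callose synthase positions.

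The F-box locus had 1 pair at 1 site. Position 933 was listed under miR1133-6-3p in category 0 with 7 tags (interval 2.81 to 14.4), which were 46.7% of its 15 window tags (interval 24.8 to 69.9). Its binding site was the same 24 nt as in the first kinase stretch and had the same score of 4.5. The tag counts at the 2 identical sites, 7 at the F-box locus and 13 at the kinase locus, had overlapping intervals. The table does not show whether some tags matched both transcripts, and this was not tested.

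At the callose synthase locus 6 pairs fell on 3 sites under 5 miRNAs of 4 families, miR1120, miR1133, miR1136 and miR1137. Position 681 had 5 tags of a window of 8 (62.5%, interval 30.6 to 86.3), in category 0, under miR1120-1193-3p at a score of 5. Position 690 also had 5 tags, which were all the tags of its window (100%, interval 56.6 to 100), but it was in category 3. It was listed under miR1133-6-3p at a score of 3 and miR1137-438-3p at a score of 5. Position 691 had 4 tags of 9 (44.4%, interval 18.9 to 73.3), in category 0, under miR1133-6-3p, miR1136-1601-3p (score 5.5) and miR1136-597-3p (score 6.5). All 3 sites were near the minimum of the table, 4 tags, and their intervals overlapped, so that no order of the sites by tags could be read at this depth.

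The 6 pairs of the callose synthase locus used 5 distinct binding sites, of which positions 682 to 692, 11 nt, were common to all. Of the 3 sites, 2 had more than 1 family, position 690 with miR1133 and miR1137 and position 691 with miR1133 and miR1136. At the kinase and F-box loci each site had 1 family. Among the sites of the other loci, 6 of 82 had more than 1 family.

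**Figure D2:**
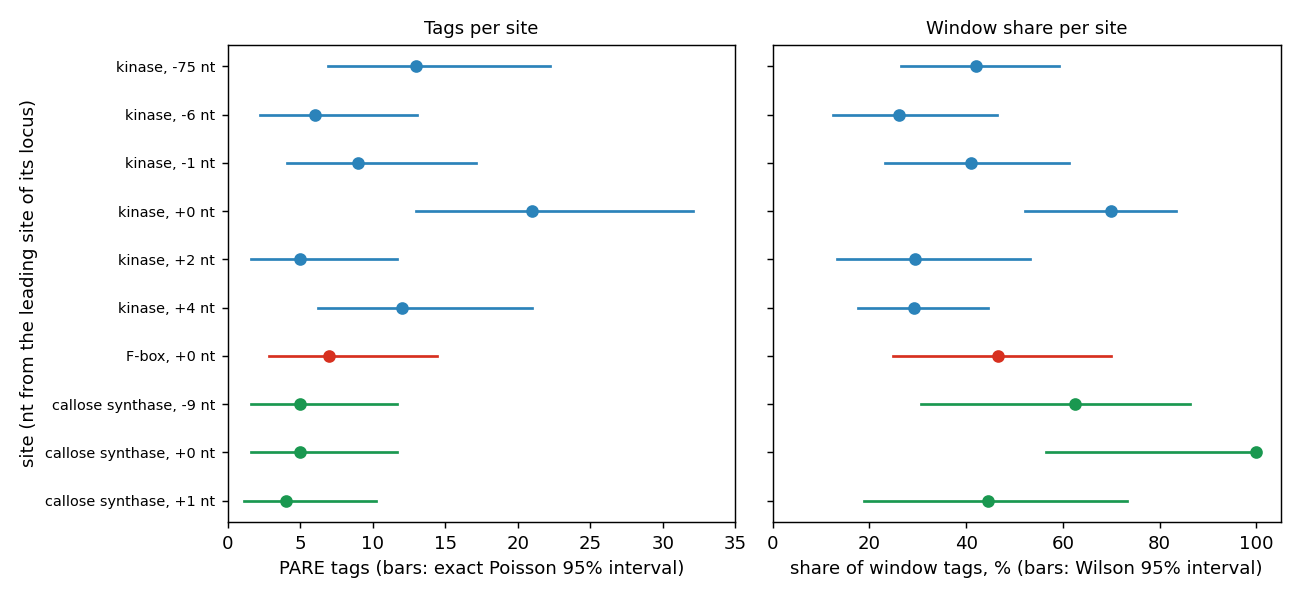
PARE tags (left, with exact Poisson 95% intervals) and share of the window tags (right, in percent, with Wilson 95% intervals) at the 10 sites, each named by its locus and its distance in nt from the position with most tags. The kinase site at 0 nt has 21 tags and 70.0% of its window; the callose synthase sites have 4 or 5 tags and wide intervals of the share.

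miR1133-6-3p was the only miRNA listed at all 3 loci, and its 4 pairs were all the miR1133 pairs of the table, as the choice of loci fixed. In each locus it had a cut at the same place, positions 373, 933 and 690, each opposite base 13 of the miRNA counted from its 5′ end. At the callose synthase locus it was also listed 1 nt further on, opposite base 12. Its pairing had mismatches at bases 2, 9 and 15 at each locus. The kinase and F-box sites had in addition a G:U wobble at base 14, so that 20 of the 24 bases were in Watson-Crick pairs, against 21 at the callose synthase site, which gave the scores of 4.5 and 3. The mismatch at base 2 lay in the seed.

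Cuts in these loci were listed further towards the 3′ end of the miRNA than in the other loci. They lay opposite base 10 in 3 of 18 pairs (16.7%), base 11 in 2 (11.1%), base 12 in 8 (44.4%) and base 13 in 5 (27.8%). At the other loci they lay opposite base 10 in 98 of 221 pairs (44.3%), base 11 in 67 (30.3%), base 12 in 51 (23.1%) and base 13 in 5 (2.26%). In these loci all 5 pairs at base 13 involved 24-nt miRNAs, 3 of them miR1133-6-3p, and all 3 at base 10 involved 21-nt miRNAs. Pairs of 1 site share their tags. Also, 24-nt miRNAs were more frequent among the pairs described here, in part through the choice of loci. This difference in cut position is therefore a count of listed pairs and was not tested. Counting 1 pair per site, that with the lowest score, base 10 was opposite the cut at 10% of the 10 sites. The base at the cut itself was in a Watson-Crick pair in 17 of the 18 pairs and in a G:U wobble at kinase position 442.

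The callose synthase and kinase loci had the most families of the table, which was part of how they were chosen and depended on pairs with scores above 4. The callose synthase locus had 4 families, the kinase locus 3 and the F-box locus 1. With over 4 tags required, which left out position 691, the callose synthase locus had 3 families. Families were counted by name, and their sequences are not all separate. Most of miR1136-597-3p, for example, is the reverse complement of most of miR1135-1184-5p. Of the 59 other loci 5 had more than 1 family, and none (0) had more than 2. The 6 sites of the kinase locus compare with at most 4 at any other locus, a number reached by 3 of the 59, while 43 of them had 1 site. With category 0 alone the callose synthase locus had 3 families and the kinase locus 2, against at most 2 at any other locus, a number reached by 4 of them. With scores of at most 4 both had 1 family, against at most 2 at the other loci, reached by 3.

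**Figure D3:**
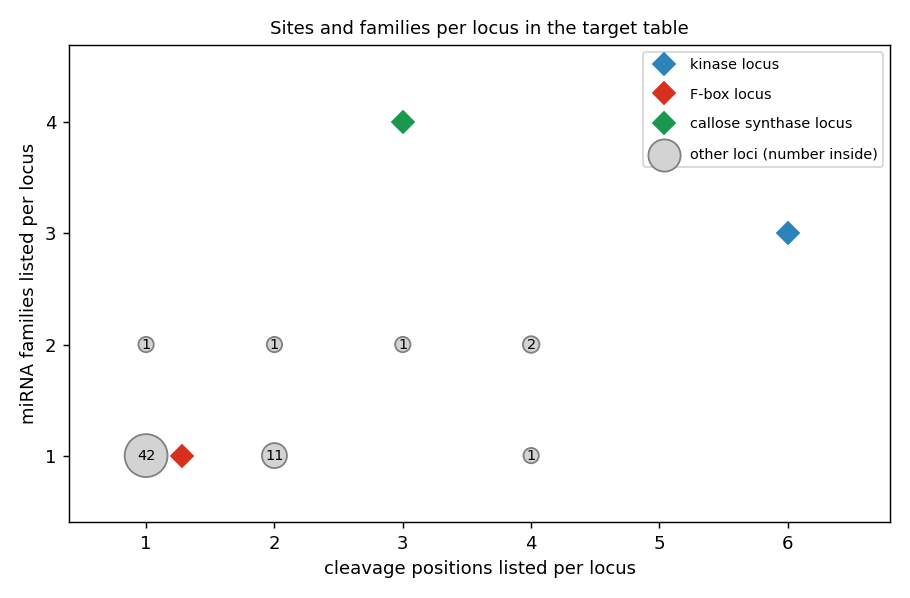
Number of cleavage positions (x axis) and of miRNA families (y axis) listed per locus, with the 3 loci as diamonds and the 59 other loci as circles that hold the number of loci at that point. The callose synthase locus, with 4 families, and the kinase locus, with 3 families and 6 positions, lie outside the range of the other loci; the F-box diamond, at 1 position and 1 family, is moved to the right so that it can be seen.

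Tags at the 10 sites spread over nearly the whole range of the table. Their median was 6.5 tags (range 4 to 21), against 5 tags (range 4 to 27) at the 82 other sites. The share of the window had a median of 43.2% (range 26.1 to 100%), against 72.7% (range 28.6 to 100%) at the other sites. At 7 of the 10 sites the share was below 50%, as at 23 of the 82 others. Category 0 was given to 8 of the 10 and 72 of the 82, and the median of the lowest score per site was 4 against 3.5. Most of the sites with many tags, at the kinase locus, thus took under 50% of their window, with position 448 as the exception.

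The windows of neighbouring sites did not add up. Of 6 pairs of sites up to 4 nt apart in these loci, 4 had a window too small to hold the tags of both sites, as did 18 of 30 such pairs at the other loci. Positions 447 and 448 of the kinase locus together had 30 tags, while the window listed at 447 held 22. Positions 690 and 691 of the callose synthase locus together had 9 tags, while the window at 690 held 5, and the 5-tag position was in category 3 although the 4-tag position was in category 0. Sites with unequal tags were in category 0 together at both of the loci with more than 1 site, and at 15 of the 16 other loci with more than 1 site. The sources used here do not state whether the listed tags were summed over libraries, so values of different sites need not refer to the same libraries or depth, and shares between neighbouring sites are those of each listed pair only.

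Most of the first kinase stretch and of the F-box stretch also occurred in miRNAs of the study that were not listed at these loci. None of these miRNAs held the whole 13-nt run common to the 4 stretches. Of 200 mature miRNA sequences given by the study and searched here, 2 lay whole and on the same strand in both the first kinase stretch and the F-box stretch, and are shown because they run along these transcripts, where the listed miRNAs pair with them.
miR1133-111-5p: TCCGTCCGGAAATACTTGTCA
miR1135-2251-5p: CTCCGTCCGGAAATACTTGTC
miR1133-111-5p lay at positions 364 to 384 of the kinase and 924 to 944 of the F-box coding sequence, and miR1135-2251-5p at 363 to 383 and 923 to 943. Both names belong to families that are also listed at the kinase transcript. Despite their different family names, these miRNAs have the same sequence with a shifted start.

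The precursor of miR1133-111-5p, 165 nt long, held sequence of all 4 stretches. Its bases 30 to 53 were the whole of the first kinase stretch and of the F-box stretch, and its bases 108 to 132 a 25-nt run of the second kinase stretch. The callose synthase stretch shared 30 nt with it on the opposite strand, bases 114 to 143. From the start of the first run to the end of the second, the kinase coding sequence spanned 102 nt and the precursor 103 nt. The spacing of the kinase stretches thus differed from that in the precursor by 1 nt. Other precursors also held such runs. That of miR1133-92-5p held the same 24 nt of the first kinase and F-box stretches. That of miR1133-72-3p held 21 nt of the callose synthase stretch on the same strand.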

How the data were processed

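Degradome (PARE) libraries of wheat leaves were made by the authors, who kept tags of 19–21 nt, collapsed them with Tally, used sPARTA to map them to the IWGSC RefSeq v1.0 coding sequences and predicted targets with its miRferno module. All tag counts, windows, scores and categories came from the authors' target table. It has a deposited whole-number tag count per cleavage position with no stated normalization, a deposited window signal (tags around the position) and a deposited fraction, the count over the window. The authors' score is the miRferno pairing penalty, and their category is a score of peak prominence. The deposited p-value, and a deposited score that equals it divided by the window fraction, were used only as a filter and to break ties. No column belongs to a library, so depth is unknown, the planned test of heat against control was not made, and 0 columns of values per library were left out.

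A locus is the gene ID without transcript suffix, a site a distinct locus and cleavage position, and a family the miRNA name up to its number. Chromosomes were read from the gene IDs. Listed miRNA sequences run 3′ to 5′: reversed, all 73 matched the study's small RNA sequences (72 before a gap character was removed), and 0 matched as listed. Binding sites were compared as the longest identical run on both strands; miRNA and precursor sequences came from the study's supplementary lists. Intervals (exact Poisson for counts, Wilson for shares, both 95%) were computed with scipy 1.17.1, tables with pandas 2.3.3 under Python 3.11.15, and the code was tested on simulated data. PCR copies are not independent molecules, so the intervals cover counting error only. The loci, lists and alternatives were chosen with earlier results of these data known. Other loci were named where they shared a miRNA or an identical binding site with the 3 loci, up to 5, by tags and then p-value.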

Additional observations from a re-analysis of the deposited data

How the results depend on the processing

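No paired analysis was possible because the values of the table belong to no single library or replicate, and for the same reason no library could be left out. Requiring over 4 tags, a p-value under 0.01 or category 0 left each of the counts of pairs, sites, stretches and families within 1.5 times its value, and so did joining sites by an overlap of at least 10 nt or by cuts within 10 nt (4 stretches each). With category 0 alone the kinase locus had 2 families in place of 3. Pairs with a score of at most 4 were fewer: 6 pairs, 5 sites, 2 stretches and 2 families, with 1 family each at the kinase and callose synthase loci and none (0 pairs) at the F-box locus. The 4 families of the callose synthase locus and 3 of the kinase locus thus rest on pairs with weaker complementarity. The share of pairs with the cut opposite base 10 was 16.7% over pairs and 10% with 1 pair per site. Medians of tags and of window shares were the same with the lowest tags and the lowest corrected p-value per site, since each site had 1 value. On the same strand alone, the longest run shared by the second kinase stretch and the callose synthase stretch was 4 nt, against 19 nt on either strand. Depth limits the order of sites at 4 to 7 tags, whose Poisson intervals overlapped.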

Other observations

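Of the 59 other loci, 8 shared a miRNA with the kinase, F-box or callose synthase locus, and 0 had an identical binding site. The F-box protein locus TraesCS5B01G013700 on 5B is annotated as the same class of protein as the F-box locus described above. It shared an 18-nt run with the 24 nt of that locus and of the first kinase stretch, on the opposite strand, and was listed under miR1135-1920-5p with 7 tags of a window of 17 at position 1330 (score 5.5). The RNA-binding protein locus TraesCS6B01G256600 on 6B shared a 19-nt run with the callose synthase stretch on the same strand and was listed under the same miR1120-1193-3p, with 5 tags of 8 at position 845 (score 4). The B3 domain-containing protein locus TraesCS3B01G610700 and the Smad/FHA domain protein locus TraesCS6B01G449300 each shared 5 miRNAs with the 3 loci, but no run longer than 9 nt with their stretches. Their leading sites had scores of 3 (position 247, 6 tags of 14) and 1 (position 984, 6 tags of 16). Under miR1137-438-3p the callose synthase locus had 5 tags of 5 at a score of 5, against 5 tags of 7 at a score of 0.5 at position 1692 of TraesCS6B01G185100, annotated as protein DETOXIFICATION, a class of multidrug and toxin transporters.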
